A study of Bos taurus with 12 samples.

Results

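The 3 heifers examined here responded poorly to superstimulation, and the change in their plasma miRNAs between an unstimulated and a superstimulated estrous cycle was followed within each animal. They were Charolais- or Limousin-cross heifers from the low end (L) of the study's range of ovarian response, counted as corpora lutea on the ovaries, and each gave plasma on Day 7 of its unstimulated (U) and of its superstimulated (S) cycle. The libraries UL1, UL2 and UL3 were paired with SL1, SL2 and SL3 by their shared number, taken to mean the same heifer, which made 6 of the 12 libraries of the series. In all groups the estrous cycles had been synchronized with a progesterone device, gonadotrophin-releasing hormone and prostaglandin. In the S cycle the heifers additionally received decreasing doses of follicle-stimulating hormone (FSH), further prostaglandin and artificial insemination. The U sample was always the earlier one, so that FSH, insemination, possible embryos and the order of sampling cannot be told apart. Another 3 heifers with a high (H) response, with the groups UH and SH, were treated and sampled in the same way and are used only for comparison. The ovarian response itself is not among the values used here, so the L label rests on the submitters' annotation.

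The material was RNA from extracellular vesicles (EVs), membrane-bound particles that cells release into the blood. A miRNA is a short RNA that guides a silencing complex to messenger RNAs, and it recognizes them chiefly by its seed, the bases from position 2 to position 8 counted from the 5′ end. Many miRNAs are made in few cell types, such as miR-1 in muscle, miR-122 in hepatocytes or miR-150 in lymphocytes, so a plasma profile is a mixture of contributions from blood cells, vessel walls and organs. FSH given over several days lets many follicles grow and ovulate, which leaves several corpora lutea in place of a single one. In plasma, fewer vesicles from a cell type and less of a miRNA per vesicle cannot be told apart.

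The deposited table held 783 bovine miRNAs, of which 293 had at least 1 read in any of the 6 L libraries and 490 had none. The test covered miRNAs with a value above 0 in 2 or 3 libraries of UL or of SL, a rule met by 214 miRNAs, 201 of them through UL and 182 through SL. A miRNA that passed only through the group where it is high had to differ to some degree. Reads of known miRNAs numbered 41178 to 52473 in UL and 29497 to 43389 in SL, and values below are reads normalized by TMM to a common depth. A library's 3 reads corresponded to 2.73 to 4.68 normalized reads. The largest 10 miRNAs of a library held 66.5 to 74.5% of its reads. In 1 library, UL1, muscle miRNAs made up 4.52% of the reads, against 0.156 to 0.420% in the other 5, so results are given with and without heifer 1.

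The mature sequences that the results below turn on are shown as listed in the deposited table, 5′ to 3′ with T for U, and with the seed in capitals. The first set holds the miRNAs that met the criteria for a change.
miR-744: tGCGGGGCtagggctaacagca
miR-182: tTTGGCAAtggtagaactcacact
miR-199a-3p: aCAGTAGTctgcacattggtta
The second set are leukocyte miRNAs, whose summed levels did not overlap between the cycles.
miR-150: tCTCCCAAcccttgtaccagtgt
miR-142-5p: cATAAAGTagaaagcactac
miR-342: tCTCACACagaaatcgcacccatct
miR-223: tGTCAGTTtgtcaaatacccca
The third set were lower in the superstimulated cycle of each of the 3 heifers.
miR-1468: cTCCGTTTgcctgttttgctga
miR-423-5p: tGAGGGGCagagagcgagacttt
miR-30a-5p: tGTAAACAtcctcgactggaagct
miR-205: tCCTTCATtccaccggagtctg
The fourth set are the muscle miRNAs that set UL1 apart.
miR-1: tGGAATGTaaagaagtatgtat
miR-206: tGGAATGTaaggaagtgtgtgg
miR-133a: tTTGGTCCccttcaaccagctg
miR-133b: tTTGGTCCccttcaaccagcta
The last set are close relatives whose changes are compared with each other.
let-7a-5p: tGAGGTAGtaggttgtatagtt
let-7b: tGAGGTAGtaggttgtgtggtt
let-7c: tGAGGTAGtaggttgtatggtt
miR-181a: aACATTCAacgctgtcggtgagtt
miR-181b: aACATTCAttgctgtcggtgggtt

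Few miRNAs met the criteria for a change between the cycles. A miRNA was called when its log2 fold change was 1 or more in either direction and its unadjusted P was 0.05 or less, and 3 of the 214 miRNAs (1.40%) met both, 2 higher in SL (0.935%) and 1 lower (0.467%). In the paired limma fit, 9 miRNAs reached that unadjusted P, and 0 passed after Benjamini-Hochberg adjustment, with a smallest adjusted P of 0.725. An exact test of 1 value over 3 pairs cannot give a two-sided P below 0.25. The median log2 fold change of all 214 miRNAs was -0.07.

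miR-744 was called higher in SL from few reads. It had 0, 0 and 1 reads in UL1, UL2 and UL3 and 2, 8 and 3 reads in SL1, SL2 and SL3. All 3 SL libraries thus lay above all UL libraries, but miR-744 passed the filter through SL only, so some difference was fixed in advance. The ratio of pooled normalized reads was 16.8, with an exact 95% counting interval of 2.53 to 715. Its log2 fold change was 2.16 (SE 0.67, limma adjusted P = 0.725) and was also called without heifer 1, at 2.33. Without heifer 2, whose SL library held 8 of the 13 SL reads, it was 1.65 and not called. miR-182, of a cluster expressed in epithelia and sensory organs, was called lower in SL. Its reads were 5, 2 and 1 in UL and 0 in each of the 3 SL libraries, and the groups did not overlap. It passed the filter through UL only, so here too some difference was fixed in advance. Against a floor of 3 reads over the 3 SL libraries, and with its UL reads taken as exact, it was at least 2.06-fold lower. Its log2 fold change of -1.66 (SE 0.62, limma adjusted P = 0.725) was -1.25 without heifer 1 and -1.75 without heifer 2, and was called in neither case. Both miRNAs lay near the limit of detection. The interval of miR-744 covers counting error only, and the bound of miR-182 leaves out the counting error of its UL reads.

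miR-199a-3p, a miRNA of fibroblasts and other mesenchymal cells, was the only called miRNA with a mean of at least 10 normalized reads. It had 87.4, 67.4 and 54.8 normalized reads in UL1, UL2 and UL3 and 455, 60.6 and 123.2 in SL1, SL2 and SL3. The increase was carried by heifer 1 and to a lesser degree by heifer 3, while SL2 was slightly below UL2, so that the groups overlapped. The log2 fold change was 1.12 (SE 0.46, limma adjusted P = 0.725), with log2 changes of 2.37, -0.15 and 1.15 in heifers 1, 2 and 3. Without heifer 1 it was 0.50, without heifer 3 it was 1.107, and in neither case was it called. The arm from the other strand of its hairpin, miR-199a-5p, showed the same order, with 6.51, 2.73 and 1.0 normalized reads in UL and 34.7, 1.99 and 3.12 in SL.

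**Figure D1:**
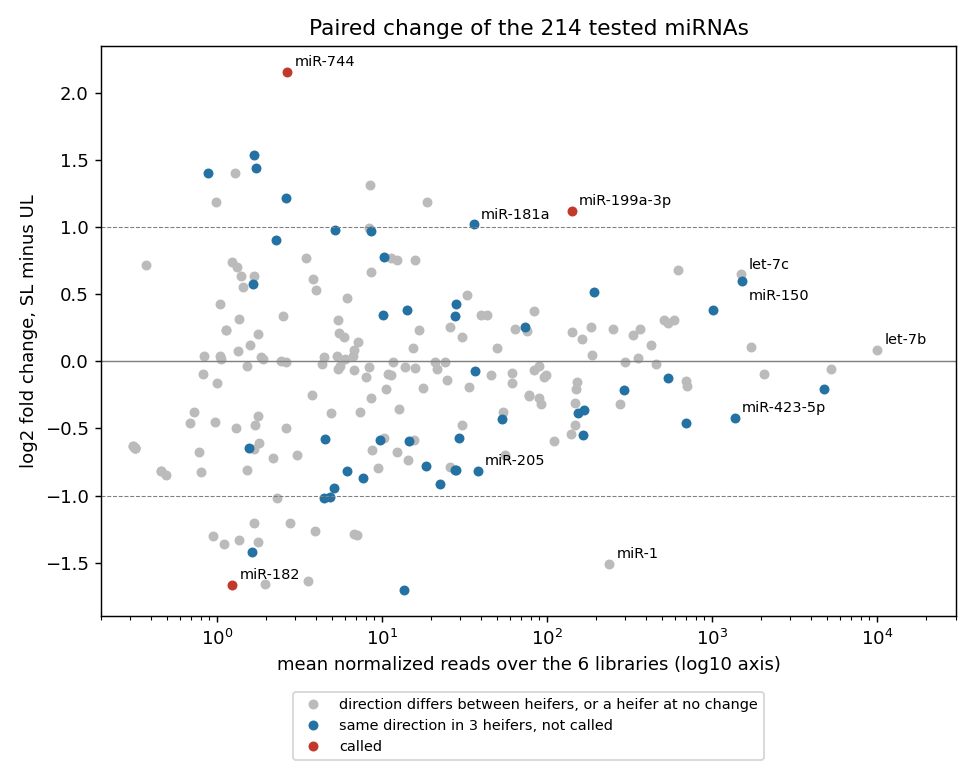
Log2 fold change between the superstimulated and unstimulated cycle (y axis, SL minus UL) against the mean normalized reads over the 6 libraries (x axis, log10) for the 214 tested miRNAs. The 3 called miRNAs are red, the others that moved the same way in all 3 heifers are blue, and the dashed lines mark a log2 fold change of 1 in either direction. miR-744 and miR-182 lie at the left, where few reads were counted, and the abundant miRNAs at the right lie close to 0.

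Which miRNAs were called depended on the heifers included. Without heifer 1, 9 of 214 miRNAs (4.21%) were called, of which 1, miR-744, was among the 3 called with all heifers, and the smallest adjusted P was 0.863. The newly called ones with a mean of at least 10 normalized reads were miR-223, miR-205 and miR-192. Without heifer 2, 14 miRNAs were called and 5 had an adjusted P under 0.05. These 5 were miR-1, let-7c, miR-199a-3p, let-7b and miR-150, with limma adjusted P from 1.93e-08 for miR-1 to 0.0347 for let-7b and miR-150. That fit rests on 2 pairs, and limma's estimate of its prior degrees of freedom was infinite, against 4.5 with all heifers. Without heifer 3, 5 miRNAs were called and 0 had an adjusted P under 0.05. Treating the libraries as unpaired gave 5 calls, of which 2 (miR-744 and miR-182) were shared with the paired fit. The other 3 unpaired calls were miR-181a, miR-211 and miR-23b-5p.

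The 3 heifers differed from each other in what changed. Among the 106 miRNAs with a mean of at least 10 normalized reads, the standard deviation of the log2 changes was 1.07 in heifer 1, 0.63 in heifer 2 and 0.88 in heifer 3. Changes of at least 2-fold were found for 25, 7 and 25 of them, respectively. Across these 106 miRNAs, all read from the same libraries of a heifer, the changes of heifers 1 and 3 had a correlation of 0.20, while those of heifer 2 had a correlation of -0.23 with heifer 1 and of -0.21 with heifer 3. The median over miRNAs of the standard deviation between heifers was 0.47. Of all 214 miRNAs, 19 were higher in SL in all 3 heifers (8.88%) and 28 were lower in all 3 (13.1%). Of the 106 more abundant ones, 10 (9.43%) and 18 (17.0%) were so, and for 17 of 214 (7.94%) the SL and UL libraries did not overlap.

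Taken as a sum, the leukocyte miRNAs were higher in the superstimulated cycle. This sum was 3158, 2809 and 3022 normalized reads in UL1, UL2 and UL3 and 3712, 3923 and 5160 in SL1, SL2 and SL3, so that the lowest SL library lay above the highest UL library. The log2 change of the sum was 0.23, 0.48 and 0.77 in heifers 1, 2 and 3 (mean 0.50 ± 0.27, SD, n = 3). It consisted mostly of miR-150, miR-342 and miR-223, and the list was chosen with earlier results of these data known. A lack of overlap was not particular to this list. The summed miR-26 family, at 617.8 to 657.0 normalized reads in UL and 664.2 to 770.4 in SL, did not overlap either. In the H heifers the leukocyte sum changed by -0.66, 0.66 and -0.135. Of the 8 leukocyte members, 0 were called and 2 reached the unadjusted P of 0.05, against 9 of 214. In all 3 heifers, 3 of 8 were higher in SL and 0 were lower, against 8.88% and 13.1% of all miRNAs. The median log2 fold change of the list was 0.31 with all heifers and 0.51 without heifer 1, against -0.07 for all miRNAs in both. The plasma had been centrifuged at increasing force before freezing, and the part of residual cells in these levels was not tested.

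miR-150, abundant in mature lymphocytes, had the smallest P of all 214 miRNAs. It had 1063, 1217 and 1340 normalized reads in UL1, UL2 and UL3 and 1533, 1833 and 2127 in SL1, SL2 and SL3. Each heifer moved by nearly the same amount, with log2 changes of 0.53, 0.59 and 0.67, and the groups did not overlap. The log2 fold change was 0.59 (SE 0.15, limma adjusted P = 0.725), below the size needed for a call. miR-142-5p, made throughout the blood cell lineages, had 163, 142 and 169 normalized reads in UL and 224, 210 and 245 in SL, again without overlap. The log2 fold change was 0.52 (SE 0.19, limma adjusted P = 0.725). Its partner arm miR-142-3p gave 80.9, 50.1 and 78.8 in UL and 74.3, 96.4 and 71.7 in SL, with a rise in heifer 2 only. miR-342, another lymphocyte miRNA, had 914, 835 and 877 normalized reads in UL and 1051, 969 and 1467 in SL, with no overlap and a log2 fold change of 0.39 (SE 0.18).

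miR-223, a miRNA of granulocytes and monocytes, differed between the heifers. It had 699, 359 and 389 normalized reads in UL1, UL2 and UL3 and 659, 599 and 1017 in SL1, SL2 and SL3. The level was thus similar in both cycles of heifer 1 and higher in SL in heifers 2 and 3. The log2 fold change was 0.68 with all heifers and 1.06 without heifer 1, where it was called (limma adjusted P = 0.863). miR-155, a miRNA of activated lymphocytes and macrophages, had 203, 198 and 155 in UL and 162, 193 and 218 in SL (log2 fold change 0.05). miR-146a, induced by inflammatory signals, had 31.6, 4.56 and 4.99 in UL and 4.96, 9.94 and 12.5 in SL. It was highest in UL1, lower in SL in heifer 1 and higher in SL in heifers 2 and 3, with a log2 fold change of -0.10 that became 1.07 without heifer 1. miR-146b remained below 12 normalized reads in every library.

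**Figure D2:**
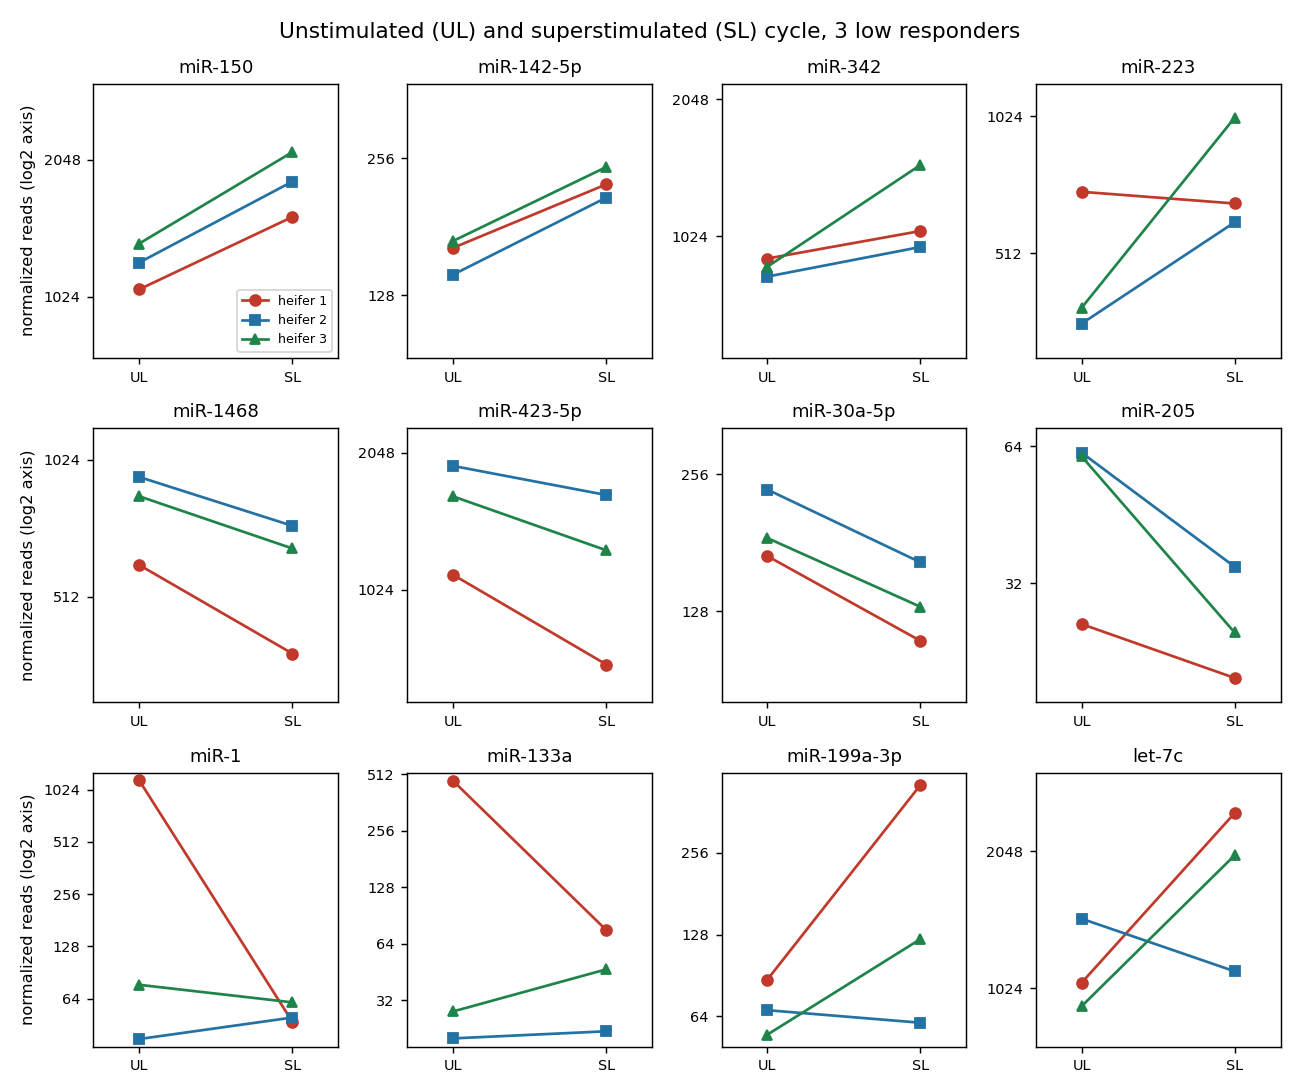
Normalized reads (y axis, log2) of 12 miRNAs in the unstimulated (UL) and superstimulated (SL) cycle, with a line for each of the 3 heifers. The top row holds leukocyte miRNAs, with 3 near-parallel rising lines for miR-150 from 1063 to 1340 up to 1533 to 2127, the middle row miRNAs lower in SL in each heifer, and the bottom row miRNAs for which 1 heifer differs from the others, with miR-1 at 1159 in UL1.

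Among the miRNAs lower in SL in every heifer, several were abundant, but their changes were small. miR-1468 had 601, 938 and 850 normalized reads in UL1, UL2 and UL3 and 384, 733 and 653 in SL1, SL2 and SL3. The groups overlapped because heifer 1 was low in both cycles, while within each heifer SL was lower, by 0.64, 0.36 and 0.38 on the log2 scale (log2 fold change -0.46, SE 0.17). miR-423-5p had 1103, 1914 and 1640 in UL and 701, 1652 and 1249 in SL (log2 fold change -0.42, SE 0.16). miR-30a-5p had 169, 237 and 185 in UL and 110, 164 and 131 in SL, without overlap and with nearly equal log2 changes of -0.61, -0.53 and -0.50. All 3 had a limma adjusted P of 0.725. Without heifer 1 their log2 fold changes were -0.37, -0.30 and -0.51.

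The summed epithelial miRNAs were lower in SL in heifers 2 and 3, by about the same amount, and close to level in heifer 1. miR-205, a miRNA of stratified epithelium, had 26.0, 62.0 and 60.8 normalized reads in UL1, UL2 and UL3 and 19.8, 34.8 and 24.9 in SL1, SL2 and SL3. It was lower in SL in all 3 heifers, with a log2 fold change of -0.81 (SE 0.33, limma adjusted P = 0.725), and was called without heifer 1, at -1.03. Of the 9 listed epithelial miRNAs, 6 were tested. Of these, 1 (miR-182) was called and 2 were lower in all heifers, against 1.40% and 13.1% of all miRNAs. The list's median was -0.30, and -1.0 without heifer 1. Among the members of the miR-200 family, miR-200a, miR-200b and miR-200c ranged from 0 to 13.7 normalized reads. Their log2 fold changes were 0.77, 0.63 and 0.21, and without heifer 1 they were 0.51, 0.05 and -0.97. Another tested member, miR-141, was at -1.33, with 1, 8 and 0 reads in UL1, UL2 and UL3 and 0 in SL. Like miR-182, it passed the filter through UL only, so a lower level in SL was fixed in advance for both. None of these miR-200 family members was called. The list's summed level was 32.6 to 96.6 normalized reads in UL and 31.0 to 48.7 in SL, overlapping through heifer 1.

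Of the liver, gut and endocrine miRNAs, miR-122, miR-192 and miR-375 had their largest differences in heifer 3. miR-122, a hepatocyte miRNA, had 75.3, 152.2 and 268 normalized reads in UL and 95.4, 195 and 53.0 in SL. It was slightly higher in SL in heifers 1 and 2 and lower by 2.32 on the log2 scale in heifer 3, which set the negative log2 fold change of -0.54. miR-192, of gut, liver and kidney, had 57.7, 46.5 and 106 in UL and 62.0, 27.8 and 37.4 in SL. Its log2 fold change was -0.70 and, without heifer 1, -1.10, which was called. miR-194, its partner in the same cluster, was lower in all 3 heifers at 5.58 to 10.0 normalized reads in UL and 3.72 to 4.68 in SL. The third miRNA of that group, miR-215, had a log2 fold change of -0.10. miR-375, a miRNA of pancreatic islets and other endocrine cells, had 24.2, 38.3 and 44.9 normalized reads in UL and 18.6, 24.9 and 15.6 in SL. It was lower in all 3 heifers (log2 fold change -0.81, SE 0.38). Of the 4 tested miRNAs of the neural and endocrine list, 3 were lower in all heifers, against 13.1% of all miRNAs. Apart from miR-375 these were miR-204 and miR-7, with means of 4.49 and 5.17 normalized reads. The remaining 1, miR-211, was higher, at 1 read in UL and 7 in SL in total.

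Muscle miRNAs were set by a single library. miR-1, made in skeletal and heart muscle, had 1159 normalized reads in UL1 against 37.4 and 76.8 in UL2 and UL3, and 47.1, 49.7 and 60.8 in SL1, SL2 and SL3. All 3 SL values lay between those of UL2 and UL3. The log2 fold change was -1.51 (SE 0.89, limma adjusted P = 0.725) and 0.04 without heifer 1. miR-133a, transcribed together with miR-1, had 471, 20.1 and 27.9 in UL and 75.6, 21.9 and 46.8 in SL. Its log2 fold change turned from -0.59 to 0.42 without heifer 1. miR-206, which shares the seed of miR-1 and is made in skeletal muscle, had 87.4, 17.3 and 11.96 in UL and 40.9, 12.9 and 12.5 in SL. In heifer 1 the S library also held the highest level of miR-133a and of miR-206 among the SL libraries. miR-133b and miR-499 had at most 7.44 normalized reads in any library. Of the heart-specific miR-208a and miR-208b, neither was tested.

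The median of the 5 tested muscle miRNAs was -0.59 with all heifers and -0.17 without heifer 1. When UL1 alone was left out of an unpaired fit, the median was 0.20 and the log2 fold change of miR-1 was -0.04. The list's sum was 1733, 74.7 and 122 normalized reads in UL and 167, 84.5 and 122 in SL. Unpaired and without UL1, miR-150, miR-142-5p and miR-223 had log2 fold changes of 0.51, 0.54 and 0.98, and 8 miRNAs were called.

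**Figure D3:**
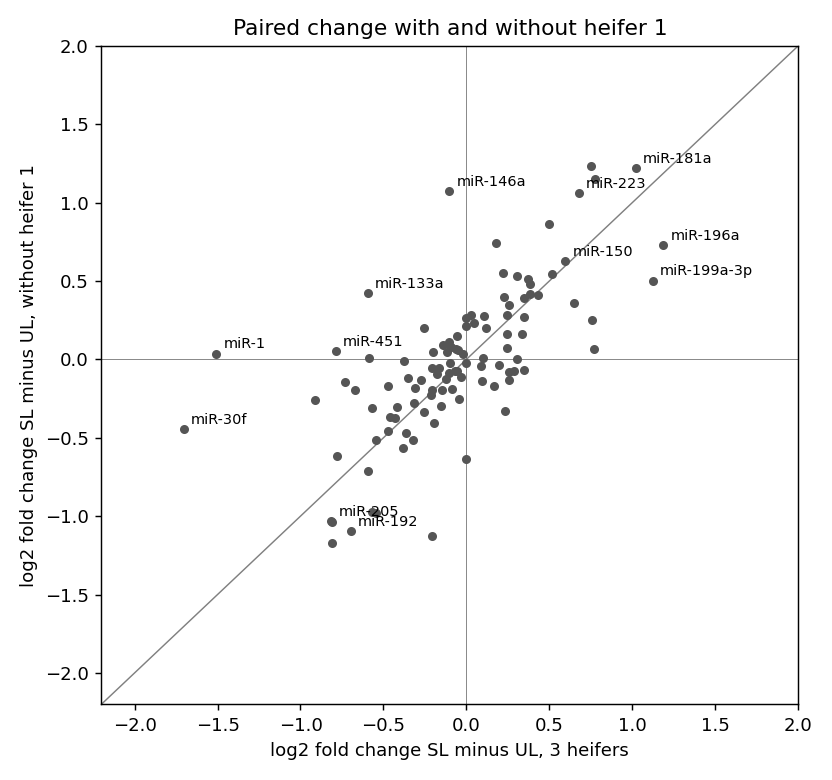
Log2 fold change (SL minus UL) of the 106 miRNAs with a mean of at least 10 normalized reads, from all 3 heifers (x axis) and without heifer 1 (y axis); the grey diagonal marks equal values. miR-1 and miR-133a move from -1.51 and -0.59 to 0.04 and 0.42, whereas miR-150 stays near the diagonal at 0.59 and 0.63.

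The red cell miRNAs moved differently in the 3 heifers, and the most abundant endothelial miRNA was slightly lower in SL in each of them. miR-486, abundant in erythroid cells, had 1147, 2618 and 1251 normalized reads in UL and 984, 2242 and 2138 in SL. It was lower in SL in heifers 1 and 2 and higher in heifer 3. miR-451, which marks red cell release, had 45.6, 28.2 and 19.9 in UL and 7.43, 38.8 and 15.6 in SL, so that UL1 was highest and SL1 lowest. The read ratio of miR-451 to miR-23a was 0.50, 0.28 and 0.18 in UL and 0.12, 0.30 and 0.16 in SL. The part of red cell RNA in the differences of heifer 1 was not tested. miR-126-3p, from an intron of an endothelial gene and the most abundant miRNA after let-7b and let-7a-5p, had 3573, 6283 and 5529 in UL and 3051, 5664 and 4666 in SL. SL was lower in each heifer by 0.15 to 0.25 on the log2 scale, and the log2 fold change was -0.21 (SE 0.13). Of the 4 endothelial miRNAs it was the only one lower in all 3 heifers, against 13.1% of all miRNAs. Its partner arm miR-126-5p, miR-221 and miR-222 had log2 fold changes of -0.15, -0.09 and 0.04. The list's sum, with log2 changes of -0.20, -0.13 and -0.27 in heifers 1, 2 and 3, consisted mostly of miR-126-3p.

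The mesenchymal miRNAs outside the miR-199a hairpin took other courses. For miR-143, of smooth muscle, UL1, UL2 and UL3 gave 72.6, 10.9 and 16.9 and the SL libraries 37.2, 20.9 and 26.5 normalized reads. Its cluster partner miR-145 had a log2 fold change of -0.20. miR-214, encoded beside miR-199a, had 3.72, 2.73 and 3.99 in UL and 6.20, 0 and 0 in SL. Of 7 tested members, 1 was called and 0 moved in 1 direction in all heifers, with a median of 0.18. Over all 214 miRNAs, 1.40% were called, 8.88% were higher in all 3 heifers and 13.1% were lower. The ovarian list, relevant to follicles and corpora lutea, had 4 tested members of 8, with a median of 0.03. Of these, 0 moved in 1 direction in all heifers, which so few members cannot set apart from those shares. The only ovarian member with a mean of at least 10 normalized reads, miR-378, had 25.1, 14.6 and 7.98 in UL and 7.43, 7.95 and 10.9 in SL.

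**Figure D4:**
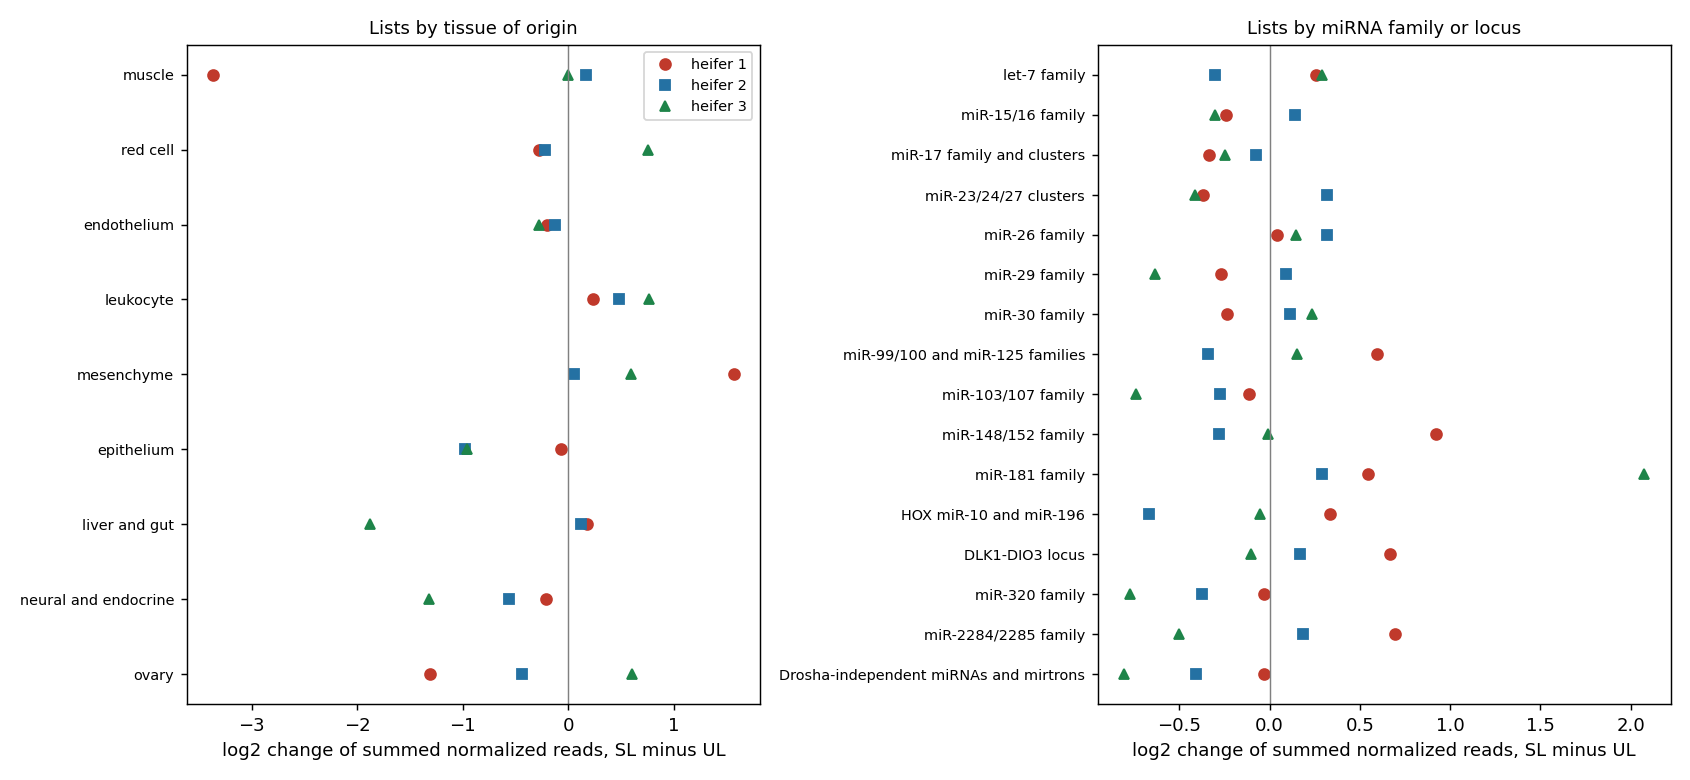
Log2 change of the summed normalized reads of each list (x axis, SL minus UL) for heifer 1 (circles), heifer 2 (squares) and heifer 3 (triangles), by tissue of origin (left) and by family or locus (right). The leukocyte, miR-181 and miR-26 lists lie above 0 in all 3 heifers, and the mesenchyme list does so at 0.06 to 1.57. Below 0 in all 3 heifers by tissue are the endothelium list, the epithelium list, and the neural and endocrine list. By family, the miR-17, miR-103, miR-320 and Drosha-independent lists also lie below 0 in all 3. The muscle list is at -3.37 in heifer 1 and close to 0 in the others.

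The let-7 family, which represses proliferation genes and is itself restrained by LIN28, held 42.8 to 51.8% of the reads of each library, and its 9 members share a seed. Their median log2 fold change was 0.09, with 0 called, against 1.40% of all miRNAs. The most abundant member, let-7b, had 8050, 12245 and 9151 normalized reads in UL and 10281, 8894 and 11854 in SL. let-7c had 1052, 1455 and 934 in UL and 2481, 1115 and 2004 in SL, more than 2-fold higher in heifers 1 and 3 and lower in heifer 2, which gave a log2 fold change of 0.65 (SE 0.32, limma adjusted P = 0.725). let-7a-5p, with 4951, 6167 and 5121 in UL and 4877, 5362 and 5338 in SL, changed by at most 0.20 on the log2 scale in any heifer. let-7a-5p differs from let-7c by A19G and let-7b from let-7c by G17A, with positions counted from the 5′ end and the first-named base first. Reads were assigned by perfect match, so a sequencing error at such a position can move a read between them. let-7d was the only member higher in SL in all 3 heifers, at 0.08 to 0.38.

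A course of higher in heifers 1 and 3 and lower in heifer 2 was found for 22 of 214 miRNAs (10.3%), 15 of them with a mean of at least 10 normalized reads. This group was singled out after its values were seen. It included let-7b, let-7c, let-7e, let-7i, miR-99a-5p, miR-125b, miR-196a, miR-196b and miR-199a-3p. miR-196a, from the HOX gene clusters, had 13.9, 10.9 and 1.99 normalized reads in UL and 63.2, 3.98 and 18.7 in SL, with log2 changes of 2.10, -1.26 and 2.72. miR-196b, which differs from it by A12C, had log2 changes of 2.16, -2.06 and 2.19. miR-125b had log2 changes of 1.01, -0.53 and 0.39. By RefSeq (ARS-UCD2.0), let-7c lies within 10 kb of miR-99a, whose log2 changes were 0.41, -0.14 and 0.46 for the 5p arm.

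The miR-181 family, involved in lymphocyte development, was higher in all 3 heifers for both tested members, against 8.88% of all miRNAs. miR-181a had 20.5, 40.1 and 12.96 normalized reads in UL and 32.2, 45.7 and 65.5 in SL. The groups overlapped through UL2, and heifer 3 contributed most, with a log2 change of 2.25 against 0.63 and 0.19. The log2 fold change was 1.02 (SE 0.47, limma adjusted P = 0.725), past the size but not the P needed for a call. miR-181b, a neighbour in the genome with the same seed, had 5.58, 2.73 and 6.98 in UL and 6.20, 7.95 and 21.8 in SL (log2 fold change 0.97).

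In the other families 0 miRNAs were called by limma, against 1.40% of all miRNAs. Of the 6 miR-30 miRNAs, 3 were lower in all heifers, against 13.1% of all miRNAs. Among these 3, miR-30c was nearly level, with log2 changes of -0.06, -0.06 and -0.09. The summed family was not lower throughout, at log2 changes of -0.24, 0.11 and 0.24 in heifers 1, 2 and 3. Its most abundant member, miR-30d, had a log2 fold change of 0.31 while miR-30a-5p, from which it differs by T12C, had -0.55. miR-30f had 17.7, 14.6 and 22.9 normalized reads in UL and 0, 13.9 and 12.5 in SL, so its log2 fold change of -1.71 rested on heifer 1 and was -0.45 without it. miR-103 had 166, 207 and 195 in UL and 151, 172 and 122 in SL. miR-107 had a log2 fold change of -0.57. miR-320a and miR-484, matured without Drosha, were lower in all heifers, at log2 fold changes of -0.39 and -0.87. miR-17-5p was higher in all 3 heifers. The more abundant miR-25, of the same list of family and clusters, was lower in all 3, at log2 changes of -0.19, -0.29 and -0.17. The other members of the list had a mixed course, and the 9 tested had a median of -0.21. The list's sum had log2 changes of -0.34, -0.08 and -0.24 in heifers 1, 2 and 3. The medians of the miR-15/16, miR-23/24/27, miR-26, miR-29, miR-99/100 with miR-125, and miR-148 with miR-152 lists were -0.11, -0.16, 0.18, -0.36, 0.06 and -0.05. Of the imprinted DLK1-DIO3 locus, 9 of 51 miRNAs in the table were tested, with a median of 0.00 and 0 called. The cattle-expanded miR-2284 and miR-2285 families had 7 tested of 63, with a median of -0.04.

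The direction of change was also counted over miRNAs that share a seed and over genome neighbours. The 214 miRNAs had 160 seeds, and 32 of these were shared by 86 miRNAs. In 19 of the 32 groups all log2 fold changes had the same sign. Of the tested miRNAs, 212 were matched to RefSeq, and 85 fell into 31 groups linked through neighbours within 10 kb. Members of a linked group need not all lie together. For instance, miR-17-5p and miR-20b shared a group although the paper places them on different chromosomes. In 17 of these 31 linked groups all log2 fold changes had the same sign. Most seed groups and most linked groups were pairs, which often share a sign without any relation. The share expected in that case was not computed, so the counts cannot show whether members moved together or not. In the group of miR-23a, miR-23b-3p, miR-24-3p, miR-27a-3p and miR-27b, for instance, these 5 members with a mean of at least 10 normalized reads lay between -0.32 and -0.10. The less abundant arms miR-27a-5p and miR-23b-5p, with 9 and 4 reads in total, were at -0.81 and 1.40.

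Some miRNAs had reads in only 1 of the cycles. Among the tested miRNAs, 14 had reads in UL and 0 in all 3 SL libraries, and 4 had reads in SL and 0 in all UL libraries. More than 3 reads in total were found for 5 and 3 of them, respectively. All of these miRNAs passed the filter only through the cycle that held their reads, so the direction of each was fixed in advance. Those with the most reads in UL were miR-497 with 2, 0 and 10 reads, miR-141 with 1, 8 and 0, miR-182 as above, and miR-133b with 5, 0 and 2. Against 3 reads over the group, and with the UL reads taken as exact, miR-497 was at least 3.09-fold and miR-141 at least 2.32-fold lower in SL. These bounds rest on UL3, with 10 of the 12 reads of miR-497, and on UL2, with 8 of the 9 reads of miR-141, and without that library the remaining reads are below the floor. The next were tied at 6 reads, miR-190b in UL and miR-1291 in SL. The number of miRNAs with a read was 199, 219 and 208 in UL and 190, 203 and 174 in SL. At the depth of the smallest library, 29497 reads, 190.6, 195.4 and 197.0 would be expected in UL and 188.1, 190.6 and 174.0 in SL.

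In the H heifers the same miRNAs did not all take the same course, but no difference between the responses passed adjustment. The paired comparison of SH with UH called 15 of 212 miRNAs (7.08%), with a smallest limma adjusted P of 0.0516. The difference between the L and the H change, tested as an interaction over the 12 libraries, met the criteria for 13 of 238 miRNAs (5.46%), with a smallest limma adjusted P of 0.70. miR-150 had log2 changes of -1.34, 0.95 and -0.19 in the H heifers, and the difference of the changes was 0.79 (SE 0.50). miR-181a changed by -0.43, -0.57 and -0.41 in H, a difference of 1.49 (SE 0.64, limma adjusted P = 0.70). miR-126-3p changed by -1.53, -0.61 and -1.52 in H against -0.23, -0.15 and -0.24 in L, a difference of 1.02 (SE 0.40). miR-30a-5p and miR-1468 were lower in SH in all 3 H heifers as well, with log2 fold changes of -0.92 and -1.05. miR-199a-3p and let-7c had log2 fold changes of 1.998 and 1.31 in H, and differences of -0.88 (SE 0.75) and -0.65 (SE 0.56). miR-1 in the H heifers changed by -0.82, 2.18 and -0.75.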

How the data were processed

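Small RNA libraries of plasma EVs were made by the authors with a kit that tags molecules with unique molecular identifiers (UMIs). Per the labels and the methods, reads were collapsed by UMI with Cutadapt, mapped to UMD3.1 with Bowtie2 2.2.2 and annotated by perfect match to miRBase. The deposited values are a score: tags per 1000000 mapped reads, truncated by the authors to whole numbers without TMM scaling. Each library's values are whole parts of multiples of a fixed step (4.48 to 6.88 in L), and dividing by it gave back whole reads for 783 of 783 values per library. A negative binomial test of these reads was not run, since the deposited unit is a truncated score. Recovered reads were used for normalization, counting intervals and a voom alternative. The number of unused columns was 0.

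TMM factors over the 12 libraries were computed from the reads, and log2(normalized reads + 1) was modelled in R 4.3.3 with limma 3.58.1, using a mean-variance trend and heifer as a block; fold changes of low miRNAs are understated on this scale. Only the 6 L libraries entered the main fit. Tests were two-sided and fits were checked on simulated data. The shared number was taken as the heifer because the methods describe both cycles of each animal; deviations from group means over 214 miRNAs correlated at 0.09, 0.04 and -0.04 within numbers and at -0.19 to 0.16 between them. Within a group every library was from another heifer, and each pair differed by more than sampling noise (chi-square per degree of freedom at least 11.2).

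Named were all called miRNAs, the 10 most abundant, the 10 with the smallest P and a mean of at least 10 normalized reads, muscle miRNAs, members of lists by tissue or family with at least 10 normalized reads, and up to 5 with 0 reads in a group; some others were named after their values were seen. Members and lists were chosen with earlier results of these data known. Lists hold miRNAs assigned to a tissue from general knowledge. No genome of the build UMD3.1 was used here and no coordinates are given. Which miRNA genes lie within 10 kb of each other was taken from RefSeq (ARS-UCD2.0). Tables and figures were made in Python 3.11.15 (pandas 2.3.3, scipy 1.17.1, matplotlib 3.10.9, numpy 2.4.6).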

Additional observations from a re-analysis of the deposited data

Results flagged for a closer look

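Of the 214 tested miRNAs, 9 (4.21%) changed one way in all 3 L heifers and the other way in all 3 H heifers, 4 of them higher in SL and 5 lower. The interaction test gave a limma adjusted P of 0.70 for each of the 9. These miRNAs, and the summed families below, were picked by their direction in both groups, which fixed the sign of the difference. The SEs do not account for that choice, and the share expected from random directions was not computed. The L change minus the H change on the log2 scale was positive for miR-139 (1.87, SE 0.62), miR-17-5p (2.18, SE 0.85), miR-181a (1.49, SE 0.64) and miR-181b (1.90, SE 0.99). miR-139 changed by 0.46, 0.33 and 0.50 in L and by -1.24, -2.16 and -0.93 in H. The difference was negative for miR-423-5p (-0.57, SE 0.35), miR-29c (-1.34, SE 0.70), miR-185 (-1.21, SE 0.66), miR-204 (-2.34, SE 1.08) and miR-484 (-1.43, SE 0.90). The last of these and miR-181b and miR-204 had a mean below 10 normalized reads. The summed miR-181 family changed by 0.54, 0.29 and 2.08 in L and by -0.56, -0.68 and -0.54 in H, a difference of 1.56 that was not tested. The summed miR-26 family changed by 0.04, 0.32 and 0.15 in L and by -0.11, -0.03 and -0.72 in H, a difference of 0.45, also not tested.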

How the results depend on the processing

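Against 3 calls in the paired fit, 5 were made with no replicate block (unpaired), 9 without the mean-variance trend, 7 with voom weights and 12 with all 12 libraries in the same fit. With at least 10 reads required, 0 of 110 were called by limma, with 6 at an unadjusted P of at most 0.05. Leaving out a heifer or a library gave 5 to 14 calls. The 3 other scalings, the 2 other pseudocounts and no filter gave 2 to 4. miRNAs with the same direction in all 3 heifers numbered 47 to 51 under the 3 other scalings and no filter, and 29 with at least 10 reads. Calls of the interaction numbered 13, 11 with median-of-ratios factors, 12 with no replicate block, and 8 without heifer 1 of L. Log2 fold changes that changed sign did so when a heifer or library was left out. Their ranges were -0.054 to 0.363 for let-7b, -0.115 to 0.043 for let-7a-5p, -0.448 to 0.043 for miR-126-3p, -0.249 to 0.082 for let-7f, -0.22 to 0.49 for miR-486, -2.497 to 0.036 for miR-1, -1.42 to 0.83 for miR-133a, -1.02 to 0.37 for miR-206 and -1.34 to 0.20 for miR-499. The cause was not tested. miRNAs below 2.73 to 4.68 normalized reads had 3 reads or fewer in a library.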
